A study of Mus musculus with 4 samples.

Results

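Deaf1 occupancy was examined at the genes for ubiquitin-conjugating enzymes and ubiquitin-specific proteases, taken as all protein-coding mouse genes whose symbol starts with Ube2 or is Usp followed by a digit. The rule gave 93 genes, 37 Ube2 and 56 Usp, of 21887 protein-coding genes on the assembled chromosomes. The study mapped Deaf1 by chromatin immunoprecipitation and sequencing (ChIP-seq) in C2C12, a widely used mouse myoblast line (myoblasts are the precursors of muscle fibres). All libraries came from this line grown in serum, and the labels name no treatment and no second genotype. There were 2 libraries made with a Deaf1 antibody and 2 input libraries made without antibody. The protocols name formaldehyde fixation and sonication but also write native ChIP-seq, a name usually kept for unfixed chromatin, and nothing in them says whether the replicates were separate cultures. The values analysed were the peaks of each ChIP library and a combined list for the pair. The inputs enter only through the background against which peaks were called. No expression was measured, so the myoblast label could not be set against marker genes.

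Ubiquitin is attached to proteins by a cascade of an activating enzyme (E1), a conjugating enzyme (E2) and a ligase (E3). The E2 carries the activated ubiquitin on a cysteine and often sets which kind of chain is built. Deubiquitinases cut ubiquitin off again, and the USP proteases are their largest family. In muscle the cascade feeds the proteasome and marks damaged organelles for autophagy. Deaf1 is a transcription factor whose SAND domain is known to bind DNA at the letters TTCG, often where such letters recur close together.

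A gene was counted as bound when a peak lay within 1 kb of either end of its annotated span. In the combined list, 10 of the 93 genes (10.8%) were bound: Ube2b, Ube2e3, Ube2g2, Ube2j2, Ube2m, Usp8, Usp10, Usp20, Usp30 and Usp38. Among the 21794 other protein-coding genes 1519 were bound, a background of 6.97%, equivalent to 6.48 of 93 genes. The excess over the background is thus between 3 and 4 genes, and it was not tested. Ube2 genes accounted for 5 of 37 (13.5%) and Usp genes for 5 of 56 (8.93%), so the Usp share lay close to the background. Among the Ube2 genes, 4 of the 25 E2s that act with ubiquitin were bound, and 1 of the 4 that act with a ubiquitin-like modifier. Neither of the 2 E2 variants without a catalytic cysteine was bound, nor any of the 6 other Ube2 genes. Beside a background of 6.97%, these sets are too small for their lack of bound genes to be read as a difference between classes.

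**Figure D1:**
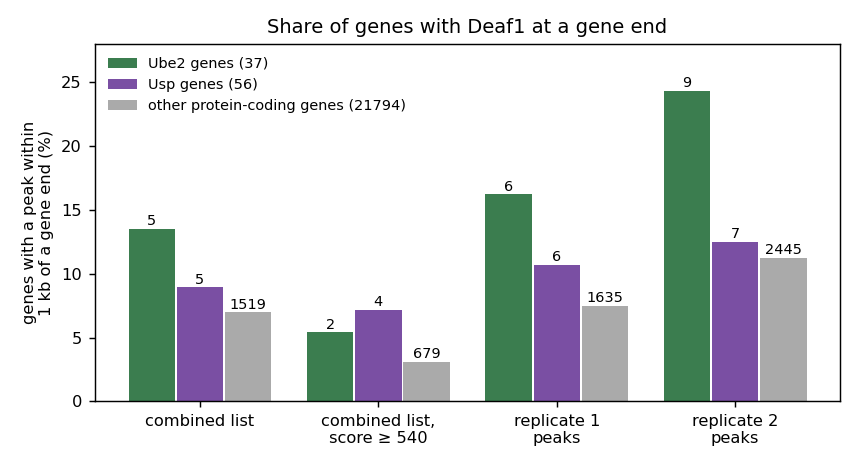
Bars give the percentage of Ube2 genes, Usp genes and all other protein-coding genes with a Deaf1 peak within 1 kb of a gene end, in the combined list, in its regions with a score of at least 540, and in each replicate's own list; the number above each bar counts the genes. The Ube2 bar is above the grey bar in all 4 lists, from 5.41% to 24.3%, and the Usp bar lies between it and the grey bar in 3 of them.

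Read separately, replicate 1 had a peak at 12 of the 93 genes (12.9%) beside 7.5% of other genes. Replicate 2, whose list is longer (3126 peaks against 1860), had a peak at 16 (17.2%) beside 11.2% of other genes. For Ube2 genes the counts were 6 and 9 of 37, and for Usp genes 6 and 7 of 56. All 10 genes of the combined list were in both replicate lists, which is largely fixed because each combined region overlaps a peak of each replicate. A further 2 genes (2.15%) had a peak in replicate 1 only and 6 (6.45%) in replicate 2 only. Among other genes these shares were 0.459% and 4.17%, so replicate 2, with its longer list, held more such genes there too. The remaining 75 genes (80.6%) had no peak at an end in any list, beside 88.3% of other genes. Each region of the combined list carries a score for its irreproducible discovery rate (IDR). The IDR, here in its global form, estimates the share of irreproducible regions among those ranked at least as high. A score of 540 stands for an IDR of 0.05. At that score 6 members were left (6.45%) beside 3.12% of other genes, namely Ube2b, Ube2j2, Usp10, Usp20, Usp30 and Usp38. They were 2 of 37 Ube2 genes (5.41%) and 4 of 56 Usp genes (7.14%), so the order of the groups was the reverse of that in the whole list. Ube2m was among the genes left out, although its region had the highest ChIP signal over background of the family in each replicate. The reversed order therefore cannot be read as weaker occupancy at Ube2 genes. At a score of 830, an IDR of 0.01, Ube2j2, Usp10 and Usp30 were left (3.23%) beside 0.381% of other genes.

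The DNA under 5 of the bound starts is shown because the replicate 2 summit, the position of highest ChIP signal, fell inside the RefSeq promoter window of 250 bases before to 50 bases after an annotated start (GRCm38.p6). Windows run 5′ to 3′ on the gene's strand, the annotated start is base 251, and capitals mark TTCG on the strand shown or, as CGAA, on the other strand.
Ube2m, chr7:13037929-13038228, minus strand: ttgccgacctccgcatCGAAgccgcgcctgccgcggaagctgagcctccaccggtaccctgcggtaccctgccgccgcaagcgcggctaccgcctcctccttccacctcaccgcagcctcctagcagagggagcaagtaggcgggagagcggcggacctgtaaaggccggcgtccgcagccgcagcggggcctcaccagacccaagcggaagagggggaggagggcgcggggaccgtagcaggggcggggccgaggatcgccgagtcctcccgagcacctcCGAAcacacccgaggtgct
Ube2j2, chr4:155943563-155943862, plus strand: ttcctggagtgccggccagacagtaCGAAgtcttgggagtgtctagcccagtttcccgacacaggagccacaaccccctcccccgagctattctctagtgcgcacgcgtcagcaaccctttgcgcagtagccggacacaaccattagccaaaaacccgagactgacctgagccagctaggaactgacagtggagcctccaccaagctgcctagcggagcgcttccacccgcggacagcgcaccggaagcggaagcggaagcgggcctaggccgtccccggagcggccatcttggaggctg
Usp8, chr2:126707078-126707377, plus strand: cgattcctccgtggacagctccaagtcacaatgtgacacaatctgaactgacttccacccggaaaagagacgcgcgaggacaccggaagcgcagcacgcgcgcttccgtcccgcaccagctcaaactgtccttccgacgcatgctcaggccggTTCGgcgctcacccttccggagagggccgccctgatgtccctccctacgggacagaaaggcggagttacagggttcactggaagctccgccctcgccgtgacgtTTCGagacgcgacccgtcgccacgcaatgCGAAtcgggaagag
Usp30, chr5:114100083-114100382, plus strand: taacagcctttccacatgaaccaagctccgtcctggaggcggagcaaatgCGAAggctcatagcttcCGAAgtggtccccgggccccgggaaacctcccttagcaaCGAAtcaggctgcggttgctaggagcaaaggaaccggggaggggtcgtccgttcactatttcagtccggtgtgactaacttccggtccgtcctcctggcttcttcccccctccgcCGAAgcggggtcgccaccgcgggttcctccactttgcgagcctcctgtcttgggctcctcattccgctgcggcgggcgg
Usp38, chr8:81014857-81015156, minus strand: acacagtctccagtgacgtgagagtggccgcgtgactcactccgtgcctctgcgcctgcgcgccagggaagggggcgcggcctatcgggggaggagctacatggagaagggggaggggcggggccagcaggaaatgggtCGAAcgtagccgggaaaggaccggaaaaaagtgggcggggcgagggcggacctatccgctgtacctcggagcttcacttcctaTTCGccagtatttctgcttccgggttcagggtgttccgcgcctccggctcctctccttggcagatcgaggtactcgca
Usp30 had 4 matches, at bases 51, 68, 107 and 222, with the replicate 2 summit at base 188. Usp8 had 3, at bases 154, 258 and 287, with the summit at base 116. Ube2m had 2 in the window shown, at bases 17 and 282, with the summit at base 256. Its other promoter windows, not shown, overlap the same region without holding the summit, and had 1 and 5 matches. Usp38 had 2, at bases 140 and 223, and its summit at base 238 lay 13 bp from the centre of the nearer match. Ube2j2 had a single match, at base 26, 188 bp from the summit at base 216. In these windows the distance from the summit to the nearest match therefore ran from 13 to 188 bp. A match to 4 letters is a description of the sequence and not a binding site.

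Ube2m, the E2 for the ubiquitin-like protein NEDD8, whose best known targets are the cullin scaffolds of ubiquitin ligases, had the highest occupancy of the family. Its strongest region, chr7:13036118-13039511, spanned 3394 bp over the gene's start. The fold enrichment at the summit, the ratio of ChIP to local background that the authors' peak caller wrote, was 36.4 in replicate 1 and 36.9 in replicate 2. These folds rank 7th of 1860 and 14th of 3126 peaks. The summit was covered by 101 ChIP fragments in replicate 1 (82.3 to 123) and by 143 in replicate 2 (121 to 168), where ranges after a number of fragments are exact Poisson intervals at the 95% level. The summits lay 4 bp apart, and that of replicate 2 was 5 bp downstream of an annotated start, inside the window printed above. The IDR of this region was 0.355 in the combined list, and 2 peaks of replicate 1 fell in it.

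Ube2m had 2 more regions, both at its far end. The stronger, chr7:13034350-13035254, had folds of 13.9 and 9.86 and overlapped an end of Chmp2a, a subunit of the ESCRT-III membrane-cutting machinery. Its summit was 84 bp from the Chmp2a end and 427 bp from the Ube2m end, so it lay closer to Chmp2a. The weaker, chr7:13035552-13036036, had folds of 5.00 and 7.77 and was also within 1 kb of that Chmp2a end. At least 3 regions at their ends were seen at 3 of the 1519 other bound genes (0.197%). Ube2m spans only 3156 bp, however, so distances of 1 kb from both ends take in most of the gene. Its 3 regions lie side by side along it and were not shown to be separate sites.

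Ube2j2, a membrane-anchored E2 of the endoplasmic reticulum that serves the degradation of misfolded proteins there, had the strongest region among the E2s that act with ubiquitin. Its folds were 14.3 in replicate 1 (39 fragments, 27.7 to 53.3) and 16.8 in replicate 2 (51 fragments, 38.0 to 67.1). The region, chr4:155943718-155943871, covered the annotated start, the replicate 2 summit lay 35 bp upstream of it, and the IDR was 0.00933. Ube2g2, a cytosolic E2 of the same degradation pathway, had a weaker region over an end of the gene, chr10:77622209-77622369, with folds of 9.96 and 6.66. It was the single strongest member region, of 10, with the lower fold in replicate 2 (28 and 21 fragments), and its IDR was 0.302.

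Ube2b, one of the pair of mammalian counterparts of yeast Rad6, which ubiquitinates histones and DNA replication factors, had folds of 8.98 and 9.32. Its region, chr11:52004138-52004275, lay over the outermost start of the span with an IDR of 0.0331. The starts that the RefSeq promoter table gives for this gene lie further in, the nearest 3433 bp from the replicate 2 summit, so no promoter window holds this region. Ube2e3 is an E2 whose import into the nucleus depends on its charging with ubiquitin. With each gene taken at its strongest region, it had the lowest mean fold of the 10 genes. Its folds were 5.35 (14 fragments, 7.65 to 23.5) and 7.77 (23 fragments, 14.6 to 34.5). The region, chr2:78868961-78869150, lay 725 bp inside the span, the farthest of any counted region, and had the lowest score in the list (121), shared by 377 of 1550 regions.

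Among the proteases, Usp10 had the strongest region. Usp10 removes ubiquitin from p53 and Beclin 1 and binds the stress granule protein G3BP. Its folds were 19.6 in replicate 1 (54 fragments, 40.6 to 70.5) and 23.0 in replicate 2 (70 fragments, 54.6 to 88.4). The region, chr8:119910621-119911866, was 1246 bp wide, lay 261 bp or more inside the gene, and had its replicate 2 summit 805 bp downstream of the annotated start. Its IDR of 0.00832 was the lowest of the family. Replicate 2 had a further, weaker peak 50 bp upstream of that start, with a fold of 6.48.

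Usp30, the deubiquitinase of the mitochondrial outer membrane that opposes PINK1 and Parkin in mitophagy, had folds of 14.6 (40 fragments, 28.6 to 54.5) and 16.5 (50 fragments, 37.1 to 65.9). Its region, chr5:114100187-114100354, covered the gene's start, the summits were 3 bp apart, and the IDR was 0.00933. Ube2j2 and Usp30 differed in mean fold by far less than the replicate SD (15.6 ± 1.8 and 15.6 ± 1.3; SD, n = 2). They follow Usp10 in the order of means, and Ube2m leads with 36.7 ± 0.36 (SD, n = 2).

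Usp38, a deubiquitinase that has been tied to innate immune signalling, had folds of 9.28 and 11.7 at chr8:81014842-81015073, over its start (IDR 0.0182). Usp8, which acts on endosomal cargo and the sorting machinery, had 7.50 and 12.0 at chr2:126707105-126707276, also over its start (IDR 0.0537). Usp20, which acts at the endoplasmic reticulum and on receptors being recycled, had 6.42 and 9.89. The Usp20 region, chr2:30981888-30982013, lay upstream of the gene and overlapped an end of BC005624, a neighbouring protein-coding gene. Its replicate 2 summit was 8 bp from that end and 330 bp from Usp20, so it cannot be given to Usp20 alone. The background at the Usp20 summit was 3.51 fragments in replicate 1 and 2.14 in replicate 2, while the pileups were 28 and 30 fragments. The mean folds of these 3 genes and of Ube2b, Ube2g2 and Ube2e3 ran from 6.56 to 10.5, with SDs of 0.24 to 3.2 (n = 2). Most neighbours in that order do not differ beyond their spread. Compared within each replicate, most of these neighbours change places from one replicate to the other.

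**Figure D2:**
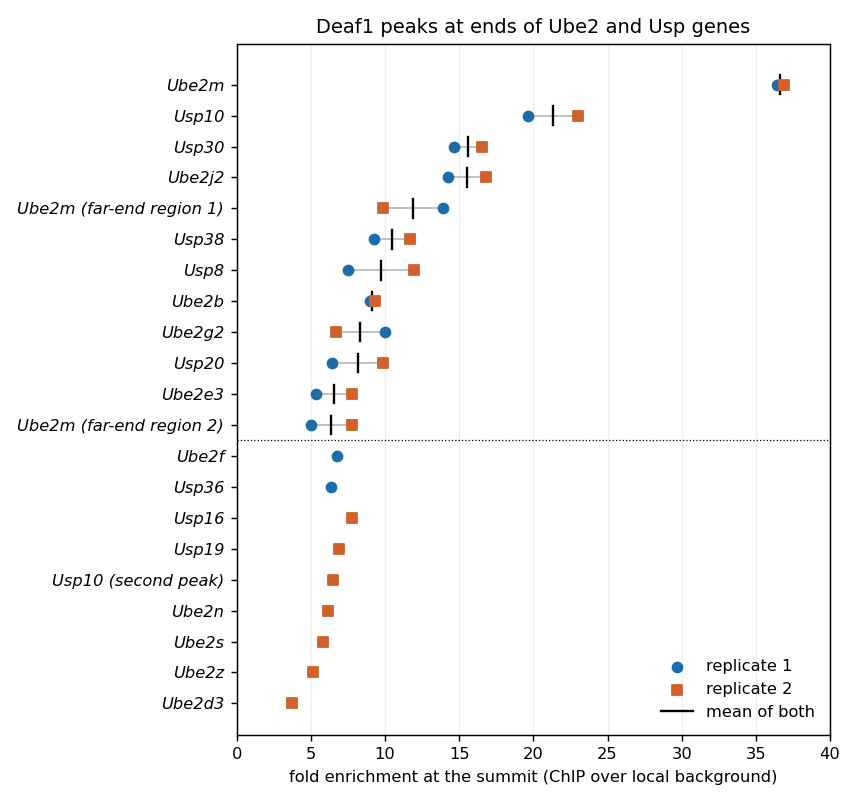
Each row is a Deaf1 peak at an end of a Ube2 or Usp gene, and the x axis is the fold enrichment at its summit (ChIP over local background) in replicate 1 (circles) and replicate 2 (squares), with a bar at the mean of both. Above the dotted line are the 12 regions of the combined list, led by Ube2m at 36.4 and 36.9, and below it the peaks seen in 1 replicate, all at or below 7.77.

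At the strongest region of each bound gene the fold was higher in replicate 2 for 9 of 10 genes, and so was the pileup. The Poisson intervals of the pileups, which cover counting error only, overlapped between replicates at all 10. The lowest background of the lists, 1.80 fragments in replicate 1 and 2.09 in replicate 2, differed the same way. Over the 12 member regions the median fold was 9.62 in replicate 1 and 10.8 in replicate 2, beside 7.51 and 8.42 over all 1249 regions at a gene end. A score of at least 540 was reached by 6 of the 12 member regions, beside 42.2% of all. The member regions spread over most of the range of the list, as the plot of both replicates' folds shows, and these medians were not tested.

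**Figure D3:**
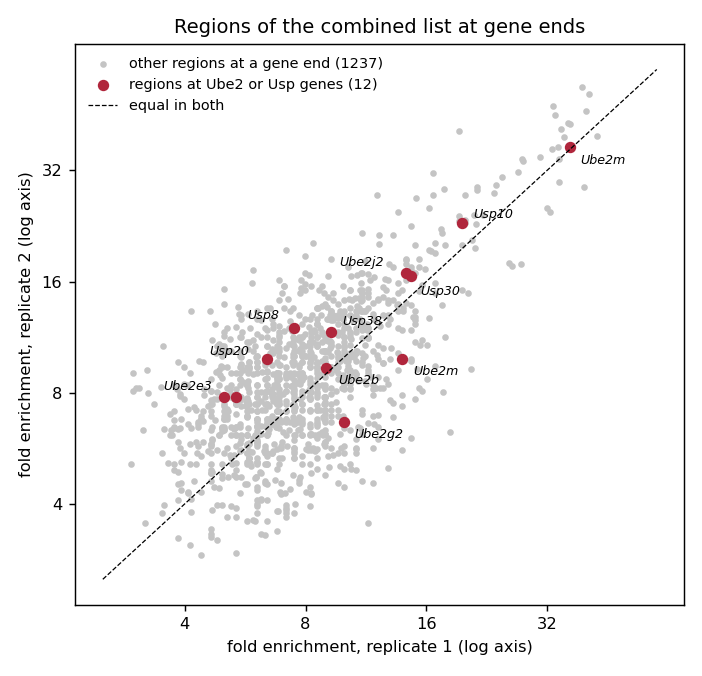
Each point is a region of the combined list at a gene end, placed by its fold enrichment in replicate 1 (x) and replicate 2 (y), both on log axes; red points are the 12 regions at Ube2 or Usp genes, grey points the 1237 others, and the dashed line marks equal folds. Ube2m and Usp10 lie in the upper right, and the other red points lie within the grey cloud; the weaker far-end region of Ube2m, beside Ube2e3, has no name printed.

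Peaks called in 1 replicate had folds of 3.70 to 7.77, beside medians of 7.28 in replicate 1 and 6.87 in replicate 2 over all peaks at a gene end. Replicate 1 alone had a peak at Ube2f, the other NEDD8 E2, with a fold of 6.78 (18 fragments, 10.7 to 28.4), and its summit lay 37 bp upstream of an annotated start. It also had a peak at Usp36, a nucleolar deubiquitinase, with a fold of 6.33, 181 bp upstream of an annotated start. Both E2s of the NEDD8 pathway thus had a peak in at least 1 library, while Ube2l6, the E2 for ISG15, had none.

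Replicate 2 alone had peaks at 4 ubiquitin E2s and 2 proteases. The E2s were Ube2n, which builds chains linked through lysine 63 of ubiquitin, with a fold of 6.15, Ube2s, which extends chains for the anaphase-promoting complex, with 5.83, Ube2z, which is charged by the E1 Uba6, with 5.13, and Ube2d3, an E2 used by many ligases, with 3.70. The proteases were Usp16, which acts on histone H2A, with a fold of 7.77, and Usp19, which has a form anchored in the endoplasmic reticulum, with 6.92. The Usp19 peak was also within 1 kb of an end of Lamb2. Their summits were covered by 17 to 26 fragments, and at Ube2d3 the background was 3.87 fragments. Absence from the replicate 1 list says only that no peak was called there.

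Some members had a region just beyond the distance rule. The nearest regions outside it were 1277 bp from Usp49 (folds 12.5 and 15.5), 1335 bp from Ube2q2 (5.71 and 7.74) and 2043 bp from Usp39 (6.33 and 9.71). Each of these lay outside the gene, within 1 kb of an end of another gene: Tomm6, Frs3 and Prickle4 for Usp49, Fbxo22 for Ube2q2, and 0610030E20Rik for Usp39. Usp34, a large deubiquitinase linked to Wnt signalling and named here after its values were seen, differed from these. Its region chr11:23306152-23307135 lay 2967 bp inside the annotated span, with folds of 23.2 and 23.0 and a score of 845. By mean fold only the strongest Ube2m region was higher among the members. The replicate 2 summit was 391 bp upstream of the start that the promoter table gives for Usp34, while the span begins further out. No peak lay at an end of the 5 Usp17 copies, whose near-identical sequences limit where short reads can be placed, nor of Usp6nl, which by function is a GTPase-activating protein and not a deubiquitinase.

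Where strand was given, in 8 of the 10 bound genes, the strongest region lay at the start of the gene and not at its far end in all 8, beside 95.5% of 1231 other bound genes. The median distance from the replicate 2 summit to the gene end was 84 bp, from 8 bp at Usp8 to 805 bp at Usp10. In the other bound genes the median was 52 bp. Usp20 was the single member (10.0%) whose every region was also within 1 kb of another protein-coding gene's end, whereas this held for 655 of the 1519 other bound genes (43.1%). Bound members had a median span of 29.0 kb and unbound members of 43.5 kb, beside 16.5 kb and 17.2 kb in other genes.

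Promoter windows were in the table for 73 of the 93 genes, 85 windows in all. Of the 8 member windows that overlapped a region of the combined list, from 6 genes, 7 held TTCG on either strand (87.5%) and 3 held at least 3 matches (37.5%). The single window without a match was that of Usp34. Of the 77 member windows that overlapped no region, 39 held it (50.6%) and 4 held at least 3 matches (5.19%). Over all protein-coding genes the letters were in 49.1% of 21263 windows, in 71.9% of 1306 windows with a region and in 47.6% of 19957 without, and at least 3 matches in 19.8% and 6.10%. TTCGAA reads as TTCG on both strands and was counted as 2 matches.

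Windows with and without a region also differed in base composition. The median ratio of observed to expected CpG was 0.917 in the member windows with a region and 0.842 in those without. Over all genes it was 0.873 and 0.524. The median GC content of member windows was 63.7% with a region and 66.3% without, whereas over all genes it was higher with a region, 61.0% against 56.0%. The letters TTCG contain a CpG, and the part of CpG content in the counts was not tested. The 3 windows of Ube2m lie in the same region, so the 8 windows are not independent.

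**Figure D4:**
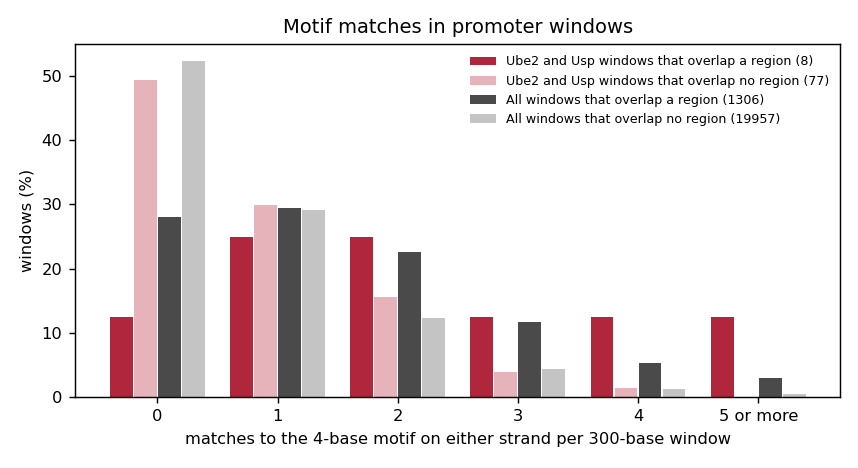
The x axis is the number of TTCG matches on either strand in a promoter window of 300 bases and the y axis the percentage of windows, for Ube2 and Usp windows with (8) and without (77) an overlapping region and for all protein-coding genes with (1306) and without (19957). Windows without a match made up 12.5% of the first set, 49.4% of the second, 28.1% of the third and 52.4% of the fourth.

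Further genes of the ubiquitin system were taken from 6 lists with 117 genes. These lists do not cover the whole system, and their only ligases are those of the HECT, RBR and UBE4 types. In the combined list of regions 18 of the 117 genes (15.4%) were bound, beside the background of 6.97%. The shares were 4 of 12 for the proteases of SUMO, NEDD8 and UFM1, 4 of 13 for ubiquitin and its relatives, 3 of 10 for E1 enzymes, 4 of 36 for the other deubiquitinase families, 3 of 41 for ligases of the HECT, RBR and UBE4 types and 0 of 5 for E2-fold proteins with other names. The ligases were thus near the background in the combined list (7.32%), while in replicate 2's own list 8 of them had a peak (19.5%) beside 11.2% of other genes. The 3 highest shares in the combined list rest on 3 or 4 genes each.

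The bound E1 genes were Uba2 and Sae1, the subunits of the SUMO E1, and Mocs3, which activates the modifier Urm1. Uba2 had a mean fold of 11.0 ± 0.92 (SD, n = 2) and Sae1 of 6.02 ± 4.3 (SD, n = 2). The SUMO proteases Senp1, Senp2, Senp5 and Uspl1 had mean folds of 7.08, 8.35, 11.5 and 10.1. Urm1 had the highest mean fold of these lists, 15.7 ± 2.6 (SD, n = 2), followed by Bap1, a deubiquitinase of histone H2A, with 12.2 ± 0.081 (SD, n = 2). Other bound genes were Fau, which encodes a ubiquitin relative fused to a ribosomal protein, the deubiquitinases Vcpip1, Otud6b and Otud7b, and the ligases Ube4a, Ube3b and Rnf31, with mean folds of 6.09 to 10.3. The regions at Mocs3, Senp1, Bap1, Fau, Rnf31 and Ube3b were also within 1 kb of an end of another gene.

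**Figure D5:**
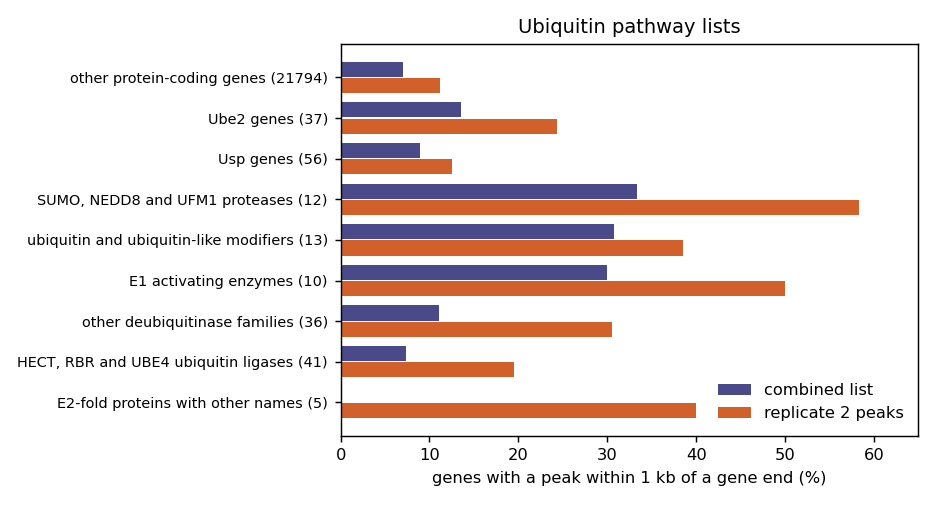
Bars give the percentage of genes in each list with a Deaf1 peak within 1 kb of a gene end, in the combined list and in replicate 2's own list, with the number of genes in brackets. All other protein-coding genes stand at 6.97% and 11.2%, and the lists run from 0 to 33.3% and from 12.5% to 58.3%.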

How the data were processed

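Peaks were analysed for 2 Deaf1 ChIP libraries of C2C12 cells, with group and replicate taken from sample titles. BWA 0.7.17-r1198, MACS2 2.1.2 and the build mm10 are named in the submitters' processing notes. Filters and treatment of duplicate reads are not given in the sources used here. Each library's deposited list gives, per peak, a fold enrichment (a ratio) and −log10 p and q values, as the authors' caller wrote them. The combined list carries the authors' score, which follows the IDR, and its −log10 IDR. Its 6 columns of single-sample values were not used.

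From these lists, the whole-number pileup and background at each summit were recovered with the formula fold = (pileup + 1)/(background + 1) and the Poisson p, and returned the deposited −log10 p to within 5.07e-05. The strength of a combined region is that of its strongest overlapping peak (at least 1 bp) in each replicate. Depth at the median summit was 22 fragments (13.8 to 33.3) in replicate 1 and 23 (14.6 to 34.5) in replicate 2, with exact Poisson intervals at the 95% level. Library totals were not used here. Distances were measured on RefSeq gene spans of GRCm38.p6, the same assembly as mm10. Strand came from the promoter table, which held 17492 of the 21887 genes. Exon structure was not used here.

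With 1 group of 2 libraries no test between conditions was possible, and gene lists are described by counts beside all other genes. Members and lists were chosen with earlier results of these data known. Genes were named if they had a combined region or a peak in 1 replicate at an end, or, up to 3, a combined region nearest outside 1 kb. Some genes that enter the counts are not reported here by name. Procedures were tested on simulated data. Python 3.11.15, numpy 2.4.6, pandas 2.3.3 and scipy 1.17.1 were used.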

Additional observations from a re-analysis of the deposited data

How the results depend on the processing

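Windows of 500 bp, 2 kb or 5 kb, the whole gene span, annotated starts only, summits in place of regions, only the gene nearest to the summit, and lists without the Usp17 copies or the block of dense peaks on chromosome 10 gave between 8 and 14 bound members, within 1.5 times the 10 reported. The share of members stayed above that of other genes in each of these, by 1.48 to 1.76 times. Leaving out the Usp17 copies or the block could not change the count of bound members, because no Usp17 copy was bound and no bound member lay in the block. The IDR score and the choice of list moved the counts by over 1.5 times. At a score of at least 540 there were 6 members (2 Ube2), and 9 bound genes in the other ubiquitin lists in place of 18 (7.69% in place of 15.4%), while other genes went from 6.97% to 3.12%. At 830 there were 3 members (1 Ube2 and 2 Usp), and the 8.47-fold ratio of shares there rests on these 3 genes. Leaving out a replicate gave 12 to 16 members, 6 to 9 Ube2 genes, 6 to 7 Usp genes and 19 to 38 genes of the other lists (16.2% to 32.5%), the higher numbers without replicate 1, while other genes stood at 7.5% and 11.2%. A −log10 q of at least 5 left 11 members in replicate 1 and 15 in replicate 2. Choosing the strongest peak by −log10 p in place of fold changed the mean fold at none of the 10 bound genes. No paired analysis was possible because only the ChIP libraries have peak lists here. Counting error at 13 to 30 fragments per summit limits comparisons of the weaker regions, and a gene without a peak was not shown to be unoccupied.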
